A study of Mus musculus with 9 samples.

Results

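Solute carriers are membrane proteins that move amino acids, sugars, metals, nucleosides, inorganic ions and many metabolites across the plasma membrane and the membranes of organelles. They are grouped into numbered Slc families by sequence, and members of 1 family often share a kind of substrate. In bone marrow, CXCL12-abundant reticular (CAR) cells are stromal cells that make the chemokine Cxcl12 and support blood stem cells and B cell precursors. Their solute carriers set which nutrients and ions the cells take up, release and store.

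The solute carriers described here are the probe sets of an Affymetrix Mouse Gene 1.0 ST array that carry a single gene symbol beginning with Slc, Slco genes included, and a mean of at least 7 over all 9 arrays. The scale is log2 of the linear RMA intensity. Slc26a7 and Slco1a4 were added by name because of their difference between the groups. That gave 59 probe sets for 54 genes, of 392 Slc probe sets and of 21789 probe sets with 1 symbol in the series. Slc26a7 met the level minimum on its own, whereas Slco1a4, with a mean of 3.81, did not. The remaining 57 probe sets were chosen by level alone, without use of the treatment groups. Of these 57, 3 had a PBS mean under 7 and 4 had a G-CSF mean under 7. Just inside the minimum were Slc22a5 (7.03), Slc41a2 (7.06) and Slc31a2 (7.07), and just outside it were Slc36a1 (6.90), Slc22a17 (6.84) and Slc12a2 (6.84).

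The cells came from mice with a gfp allele at the Cxcl12 locus (Cxcl12+/gfp), shared by both groups, and were sorted from marrow as lineage-negative and bright for that fluorescent protein. In 1 group, mice had received G-CSF (granulocyte colony-stimulating factor), which drives neutrophil output, at 250 µg/kg per day for 5 days (5 arrays). In the other, mice had been given phosphate-buffered saline (PBS) alone for 5 days (4 arrays). The labels give no age and do not say which animals or pools stand behind an array, so p-values measure the spread between arrays. The source-name labels speak of pre-B colonies, 4 of them with an Hspa9 genotype, against the titles and protocols, so groups follow the titles.

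Markers of the labelled cell type were present, with Cxcl12 at 12.35 ± 0.11 and Lepr at 11.55 ± 0.21 in PBS (mean ± SD, n = 4, log2 intensity). Other cell types also left transcripts. The mean of 17 measured neutrophil markers (18 listed) lay at 7.46 to 8.82 in PBS arrays and 8.40 to 9.14 in G-CSF arrays, and 2 of the 17 rose (Mmp9 and Csf3r). The mean of 10 measured erythroid markers (16 listed) lay at 5.07 to 5.95 in PBS and 4.50 to 4.78 in G-CSF, and 3 fell (Car1, Rhag and Tfrc). The mean of 14 measured macrophage markers (15 listed) lay at 6.04 to 6.63 and 5.86 to 6.09, and 1 fell (Vcam1, which CAR cells also express). Of 10 measured B cell markers (11 listed), 3 fell (Ebf1, Cd79a and Dntt), with list means of 5.35 to 5.72 in PBS and 4.80 to 5.15 in G-CSF. Ebf1 stood apart from its list, with a PBS mean of 10.10, while the next highest, Vpreb3, was at 6.08. Cd79a (4.46) and Dntt (4.17) were low in PBS already. The part of B cells in the fall of Ebf1 was not tested. Of 14 endothelial markers, 0 passed in limma, with list means of 4.84 to 5.18 and 4.86 to 5.08. Of these, 2 had an unadjusted p under 0.05, and the smaller adjusted p was 0.0690 for Emcn (limma). Of 11 CAR identity genes, 6 fell (Lpl, Adipoq, Angpt1, Vcam1, Ebf3 and Kitl), with list means of 10.71 to 10.92 in PBS and 10.07 to 10.12 in G-CSF. Cxcl12 was at -0.36, lower in every G-CSF array than in any PBS array, and Lepr at -0.22. Neither passed. Whether the falls of carriers given below go with this lower list mean was not tested. In bulk RNA, fewer cells of a type and less RNA per cell cannot be told apart, and the part of these other cells in the results below was not tested.

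The arrays also fell into 2 sets on the first principal component (34.9% of the variance), which the labels do not name. Set 1 held PBS replicates 1 and 2 and G-CSF replicates 1 to 3, and set 2 held the other 4 arrays. Each set held both groups, so changes are also given within sets and with the set as a block in the fit.

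After G-CSF, most expressed solute carriers stayed within the spread of the arrays, and 4 of the 57 chosen by level changed: Slc39a14 and Slc20a2 rose, and Slc6a6 and Slc5a3 fell (limma, Benjamini-Hochberg adjusted p under 0.05 over 21789 probe sets). The added pair, Slc26a7 and Slco1a4, lay lower in every G-CSF array than in any PBS array. The 4 of 57 stand beside a background of 1.62% of all probe sets called and 3.93% of the 4480 probe sets with a mean of at least 7; 4 of 57 is 7.02%. Of all probe sets 0.743% rose and 0.877% fell, of bright ones 1.7% and 2.23%, and of the 57 it was 3.51% each. Groups did not overlap for 10 of the 57 (17.5%), 5 higher and 5 lower, against 9.53% of bright and 4.65% of all probe sets. The 5 lower include Slc23a2, which met the level minimum only through its higher PBS arrays, so this share is not read against the background. By direction the bright background was 4.35% higher and 5.18% lower, and that of all probe sets 2.18% and 2.46%. The median change of the 57 was 0.06 on the log2 scale, beside 0.01 over all probe sets and 0.01 over bright ones. That median has no settled sign, since it was -0.06 without PBS replicate 3. Of the 57, 48 moved by less than 0.5, and 13 had an unadjusted p under 0.05 (22.8%, against 16.3% of bright and 9.22% of all probe sets). These 13 include Slc23a2, Slc40a1 and Slc22a5, all admitted only through their higher PBS arrays, so the same limit holds.

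**Figure D1:**
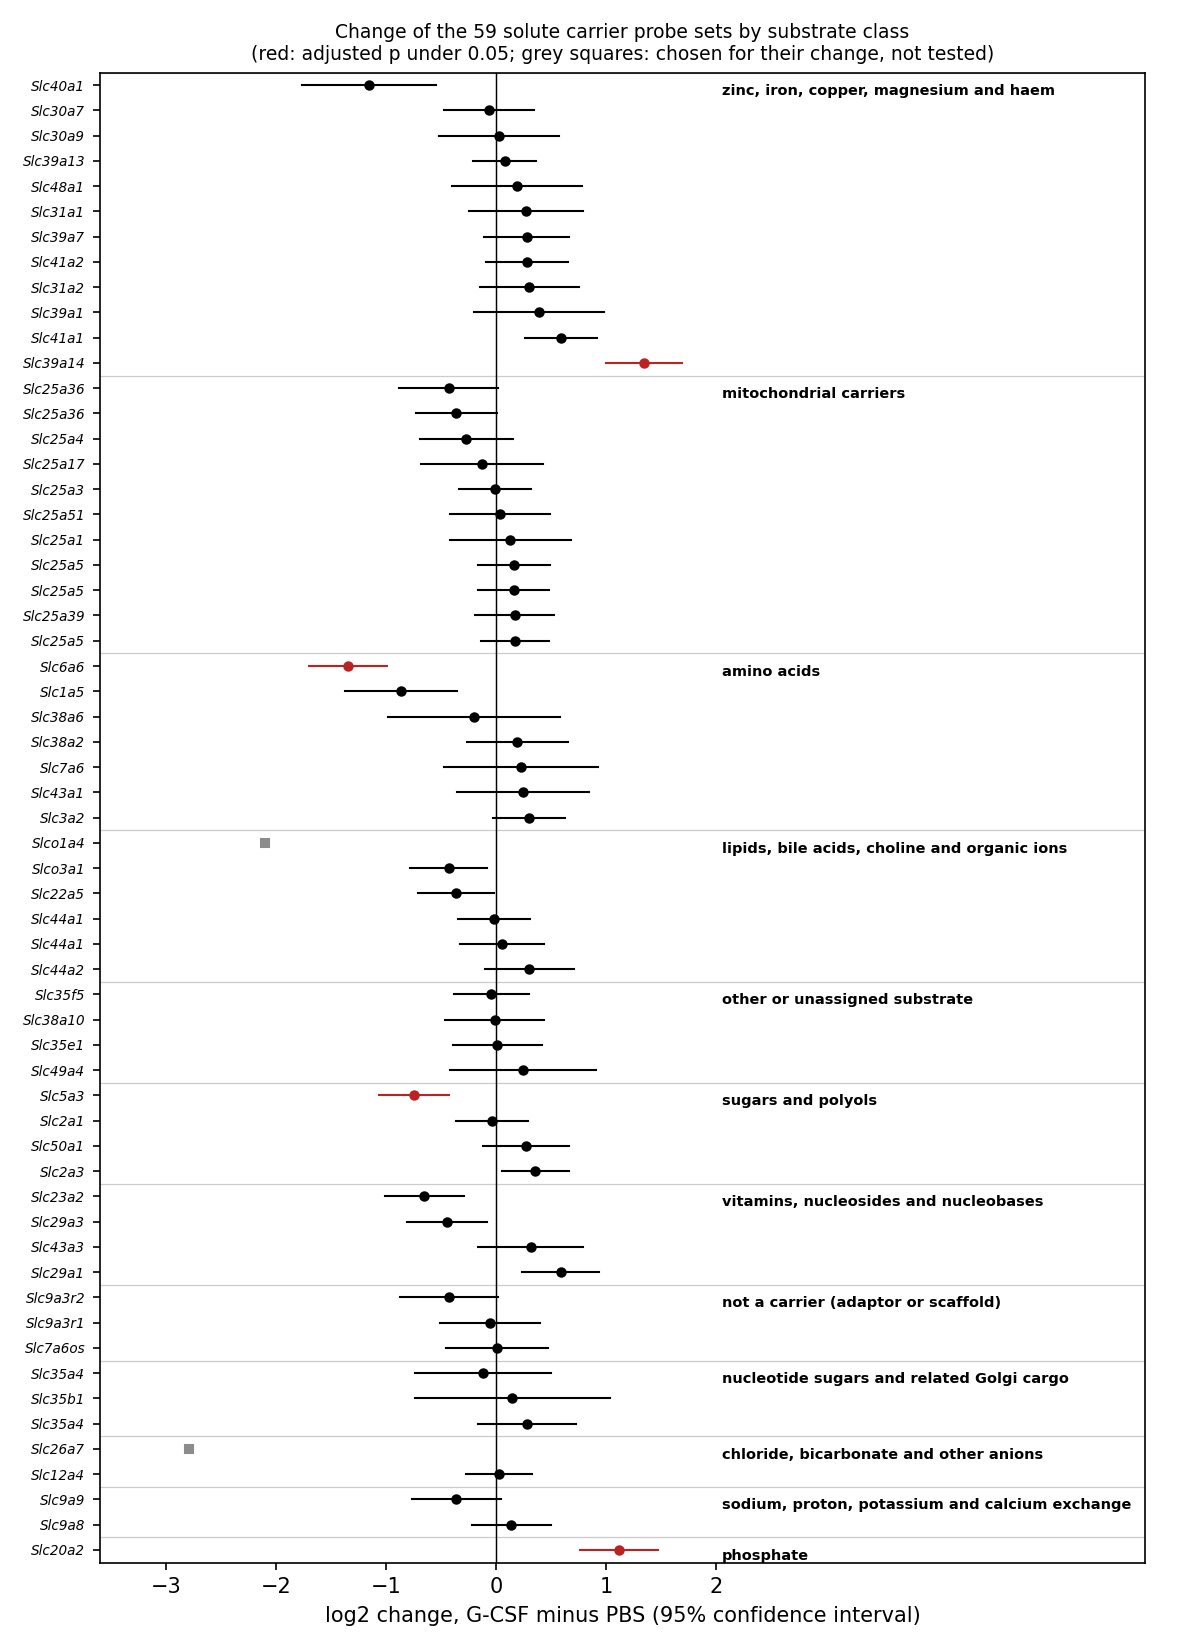
Log2 change (G-CSF minus PBS) of each of the 59 probe sets, ordered within substrate class, with the 95% confidence interval of the limma fit for the 57 chosen by level. Red marks the 4 that passed (Slc39a14 and Slc20a2 to the right, Slc6a6 and Slc5a3 to the left), grey squares mark Slc26a7 and Slco1a4, and most other intervals cross 0.

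Slc26a7, an anion exchanger that moves chloride and bicarbonate, differed most between the groups in size. Its log2 intensity was 9.74, 10.05, 9.37 and 10.09 in the 4 PBS arrays and 6.94, 7.34, 7.28, 7.07 and 6.48 in the 5 G-CSF arrays. The groups were far apart, and PBS replicate 3 and G-CSF replicate 5 were the lowest of their groups. The means were 9.81 ± 0.34 (SD, n = 4) and 7.02 ± 0.34 (SD, n = 5), a difference of -2.79 or 6.92-fold. It was -2.71 in set 1 and -2.95 in set 2. No test is given because the gene was chosen for this difference. Of the 11 Slc26 probe sets on the array, Slc26a7 was the only one to reach the level minimum, and the other 10 did not pass. In its substrate class the other member was Slc12a4, a potassium-chloride cotransporter, with a change of 0.03 (95% confidence interval -0.27 to 0.33, adjusted p = 0.992 in limma).

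Slco1a4 belongs to the organic anion transporting polypeptides, which carry bile acids, steroid conjugates and thyroid hormones. Its PBS arrays were at 5.39, 5.37, 3.97 and 5.17 and its G-CSF arrays at 2.81, 2.66, 2.74, 3.17 and 3.03. All G-CSF arrays lay below all PBS arrays, and PBS replicate 3 stood between the groups. The means were 4.98 ± 0.67 (n = 4) and 2.88 ± 0.21 (n = 5), a difference of -2.09, or -2.64 in set 1 and -1.47 in set 2. Without PBS replicate 3 it was -2.43. These intensities are low for the array, and RMA gives no detection call, so neither group was called absent.

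Slco1a4 sits in a cluster of 6 Slco1 genes on mouse chromosome 6, in the order Slco1c1, Slco1b2, Slco1a4, Slco1a1, Slco1a6 and Slco1a5. The cluster was looked at after the values were seen, and the other 5 genes are under the level minimum. Slco1a5, the close relative at the far end, fell from 6.02 ± 0.17 (n = 4) to 4.28 ± 0.23 (n = 5), by 1.74 or 3.34-fold (limma adjusted p = 1.17e-04). Its PBS arrays were at 5.84, 5.96, 6.24 and 6.04 and its G-CSF arrays at 4.00, 4.50, 4.34, 4.09 and 4.48, so the groups did not overlap, and PBS replicate 3 was not low here. The 4 genes that flank or lie between these did not pass, with changes of -0.13 (Slco1a1), -0.01 (Slco1a6), 0.22 (Slco1b2) and -0.02 (Slco1c1). Related genes of this kind can share probe sequence, and cross-hybridisation between Slco1a4 and Slco1a5 was not tested.

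The start regions of Slco1a4 and Slco1a5 are shown because Slco1a4 was added for its difference between the groups and Slco1a5 passed in limma. Both are from RefSeq, build GRCm38.p6, minus strand, and span 250 bases before to 50 bases after the start, at chr6:141856171-141856470 for Slco1a4 and chr6:142278825-142279124 for the more similar of the 2 Slco1a5 starts in the table. Capitals mark runs of at least 12 bases found in both.
Slco1a4: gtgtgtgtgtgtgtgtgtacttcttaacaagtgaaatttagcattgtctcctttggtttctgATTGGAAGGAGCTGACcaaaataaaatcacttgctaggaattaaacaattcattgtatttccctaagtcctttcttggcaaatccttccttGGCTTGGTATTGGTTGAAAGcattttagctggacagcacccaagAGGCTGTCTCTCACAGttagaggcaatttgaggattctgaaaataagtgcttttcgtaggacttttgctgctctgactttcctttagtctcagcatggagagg
Slco1a5: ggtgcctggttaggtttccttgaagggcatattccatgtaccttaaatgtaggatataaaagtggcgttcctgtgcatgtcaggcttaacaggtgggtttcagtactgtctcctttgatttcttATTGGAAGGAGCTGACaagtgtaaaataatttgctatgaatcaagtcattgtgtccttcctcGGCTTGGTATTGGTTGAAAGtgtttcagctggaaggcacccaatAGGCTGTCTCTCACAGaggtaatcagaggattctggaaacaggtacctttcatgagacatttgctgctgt
The regions share 3 such runs, of up to 20 bases, and 81.0% of 237 aligned bases are identical. The other Slco1a5 start matched at 69.6% of 181 aligned bases. This likeness is a description of the letters, and no binding or chromatin was measured. Start regions were listed for 42 of the 54 genes.

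**Figure D2:**
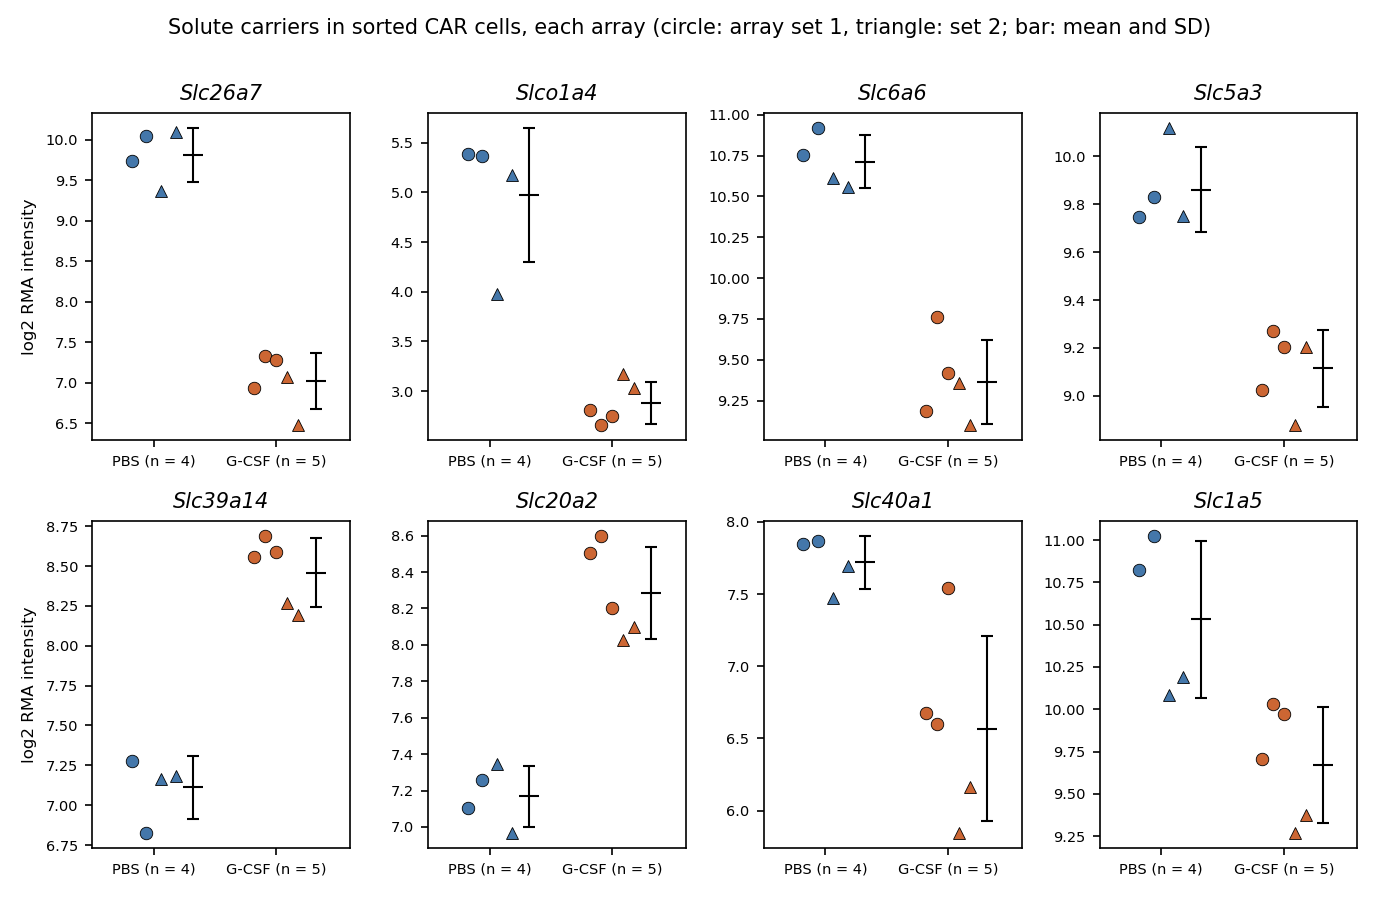
Log2 RMA intensity of 8 solute carriers in each of the 4 PBS and 5 G-CSF arrays (circles for array set 1, triangles for set 2), with the mean and SD of each group to the right. The groups are apart for all genes shown except Slc40a1, where G-CSF replicate 3 lies among the PBS arrays, and Slc1a5 differs between sets within each treatment.

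The class of zinc, iron, copper, magnesium and haem carriers was the most numerous, with 12 probe sets for 12 genes. In it 1 rose, 0 fell and 11 did not pass. Changes were above 0 for 10 of the 12, with a median of 0.28, while 34 of the 57 and 2318 of the 4480 bright probe sets were above 0. Among the 10, Slc41a2 (PBS mean 6.91) and Slc31a2 (6.90) met the level minimum only through their higher G-CSF arrays. Slc40a1, with a change below 0, met it only through its PBS arrays. The count of 10 is therefore not read against the background. Within set 1, 7 of the 12 were above 0 (median 0.10), and within set 2, 11 of the 12 (median 0.30); over all 57 these were 20 and 41. No test was made on the median of a class.

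Slc39a14 (Zip14) imports zinc into the cytosol and also takes up manganese and iron not bound to transferrin, and in liver it is known as a target of interleukin-6. Its PBS arrays were at 7.28, 6.83, 7.17 and 7.18 and its G-CSF arrays at 8.56, 8.69, 8.59, 8.27 and 8.19. The groups were separated by more than the range of either. It rose by 1.35 or 2.54-fold, from 7.11 ± 0.20 (n = 4) to 8.46 ± 0.22 (n = 5; SE 0.16, limma adjusted p = 0.00101). The change was 1.56 in set 1 and 1.06 in set 2. The neutrophil marker mean was on average also higher in G-CSF arrays, but its ranges overlapped (7.46 to 8.82 in PBS, 8.40 to 9.14 in G-CSF). Its part in the rise of Slc39a14 was not tested. The other zinc importers of the class did not pass: Slc39a1 was at 0.39, Slc39a7, which releases zinc from the secretory pathway, at 0.28, and Slc39a13 at 0.08. Of 15 Slc39 probe sets of any level, Slc39a14 was the only one called. The Slc30 zinc exporters Slc30a7 and Slc30a9 were at -0.06 and 0.03 and did not pass.

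Slc40a1 (ferroportin), the iron exporter, had PBS arrays at 7.85, 7.87, 7.47 and 7.70 and G-CSF arrays at 6.68, 6.60, 7.54, 5.84 and 6.17. The G-CSF arrays were below all PBS arrays except replicate 3, which lay among them. The change of -1.15 (95% confidence interval -1.76 to -0.55) did not pass (limma adjusted p = 0.0690). It passed without G-CSF replicate 3 (-1.40, adjusted p = 0.00705) and with the set as a block (adjusted p = 0.00889). Its G-CSF mean was 6.57, so it met the level minimum only through the PBS arrays, where it was higher. Macrophages and erythroid cells also express ferroportin. The erythroid marker mean was lower in every G-CSF array than in any PBS array. The macrophage marker means overlapped (6.04 to 6.63 in PBS, 5.86 to 6.09 in G-CSF). Cd68, Csf1r, Cd14 and Lyz2 had changes above 0 and the other macrophage markers below 0. The part of these cells in the change of Slc40a1 was not tested. Of 9 partner genes of metal handling looked at after the values were seen, 2 fell, Tfrc (given above among erythroid markers) and Heph. Heph (hephaestin), a ferroxidase that works with ferroportin, fell by 0.72 (limma adjusted p = 0.0450), a call that held in 1 of 9 fits leaving out an array (adjusted p of up to 0.140). The ferritin chains Fth1 and Ftl1 were at -0.15 and -0.08, and the zinc-responsive metallothioneins Mt1 and Mt2 at 0.05 and 0.12, none of which passed.

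Among the remaining metal carriers, Slc41a1, a magnesium transporter, was at 7.24 to 7.54 in PBS and 7.76 to 8.19 in G-CSF, with no overlap. Its change of 0.59 did not pass (adjusted p = 0.0839, and 0.0516 with the set as a block, limma). Its relative Slc41a2 was at 0.28, the copper carriers Slc31a1 and Slc31a2 at 0.27 and 0.30, and the haem transporter Slc48a1 at 0.19, each with overlapping groups.

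Slc20a2 (PiT-2), a sodium-coupled phosphate importer, was the sole gene of the phosphate class; the mitochondrial phosphate carrier Slc25a3 is given with its own family. Its PBS arrays were at 7.11, 7.26, 7.35 and 6.97 and its G-CSF arrays at 8.50, 8.60, 8.20, 8.02 and 8.10. No arrays overlapped, and the 2 lowest G-CSF arrays were those of set 2. It rose by 1.12 or 2.17-fold, from 7.17 ± 0.17 (n = 4) to 8.28 ± 0.25 (n = 5; SE 0.16, limma adjusted p = 0.00374), by 1.25 in set 1 and 0.91 in set 2. Its relative Slc20a1 (PiT-1), under the minimum at 6.79, was at -0.28 (adjusted p = 0.758, limma).

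The class of amino acid carriers held 7 probe sets, of which 1 fell, 0 rose and 6 did not pass. Their median change of 0.19 has no settled sign: it was -0.24 within set 1, -0.0190 within set 2, -0.0487 with array weights and -0.0649 without PBS replicate 3. Slc6a6 takes up taurine, an amino sulfonic acid that cells also use as an organic osmolyte. Its PBS arrays were at 10.76, 10.92, 10.61 and 10.56 and its G-CSF arrays at 9.19, 9.76, 9.42, 9.36 and 9.10. The groups did not overlap, and the gap between them was wider than the range of either. It fell by 1.35 or 2.54-fold, from 10.71 ± 0.16 (n = 4) to 9.37 ± 0.26 (n = 5; SE 0.16, limma adjusted p = 0.00116), by 1.38 in set 1 and 1.36 in set 2. It was the only one of 21 Slc6 probe sets that passed or met the level minimum.

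Slc1a5 (ASCT2), an exchanger of glutamine and other neutral amino acids, was at 10.83, 11.02, 10.08 and 10.19 in PBS and 9.71, 10.03, 9.97, 9.27 and 9.38 in G-CSF. All G-CSF arrays were lower than all PBS arrays, and in both groups the arrays of set 2 were lower than those of set 1. The change of -0.86 (95% confidence interval -1.37 to -0.35) did not pass (limma adjusted p = 0.117), and it passed with the set as a block (-0.93, adjusted p = 0.00189). It was -1.02 in set 1 and -0.82 in set 2. Slc3a2, the heavy chain that carries several amino acid exchangers to the surface, was at 0.30 (95% confidence interval -0.02 to 0.62), and Slc38a2, a sodium-coupled importer of small neutral amino acids, at 0.19 (-0.26 to 0.65). Neither passed, nor did Slc7a6 (0.23), Slc43a1 (0.25) and Slc38a6 (-0.20).

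The class of sugar and polyol carriers held 4 probe sets, of which 1 fell and 3 did not pass (median 0.12). Slc5a3 (SMIT1) couples the uptake of myo-inositol to sodium, and myo-inositol is likewise an organic osmolyte. It was at 9.75, 9.83, 10.12 and 9.75 in PBS and 9.02, 9.27, 9.20, 8.88 and 9.20 in G-CSF, with no overlap. It fell by 0.75 or 1.68-fold, from 9.86 ± 0.18 (n = 4) to 9.12 ± 0.16 (n = 5; SE 0.15, limma adjusted p = 0.0230). The fall was 0.62 in set 1 and 0.89 in set 2. This call depended on single arrays: leaving out PBS replicate 2, PBS replicate 4, G-CSF replicate 1 or G-CSF replicate 4 ended it, with a highest adjusted p of 0.0641 (limma). It was also lost with all probe sets of the table in the fit (adjusted p = 0.0629) and after a further quantile normalisation (change -0.82, adjusted p = 0.0529).

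Both members that fell, Slc6a6 and Slc5a3, import organic osmolytes, so related genes were looked at after the values were seen. Of 9 measured (11 listed), the 2 that fell were Slc6a6 and Slc5a3 themselves, which the list was built around, and 7 did not pass. Nfat5, the transcription factor known to drive osmolyte transporters under high salt, was at -0.26 (limma adjusted p = 0.582). Its groups did not overlap, at 8.30 to 8.43 in PBS and 7.88 to 8.16 in G-CSF. Slc6a12, a betaine transporter, was at 0.06 (limma adjusted p = 0.982). Csad and Cdo1, enzymes of taurine synthesis, were at -0.18 and -0.39, and none of these 4 genes passed.

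Of the glucose transporters, Slc2a1 (GLUT1) was at -0.04 (95% confidence interval -0.36 to 0.29; adjusted p = 0.990 in limma), and its sign changed between settings. Slc2a3 (GLUT3) had no overlap between groups, at 7.50 to 7.79 in PBS and 7.88 to 8.23 in G-CSF, but its change of 0.36 did not pass (adjusted p = 0.384). Slc2a3 is also known from neutrophils, whose marker mean was on average higher in G-CSF arrays, with ranges that overlapped. Slc50a1, a sugar transporter, was at 0.27.

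The class of vitamin, nucleoside and nucleobase carriers held 4 probe sets, and 0 passed in limma over all probe sets, although 3 had an unadjusted p under 0.05. Slc23a2 (SVCT2), which imports ascorbate, a cofactor of collagen hydroxylation, was at 7.35 to 7.74 in PBS and 6.43 to 7.05 in G-CSF (change -0.65, adjusted p = 0.0862), and it met the level minimum only through the PBS arrays. Slc29a1 (ENT1), an equilibrative nucleoside transporter, was at 8.66 to 9.23 in PBS and 9.36 to 9.64 in G-CSF (change 0.59, adjusted p = 0.127). Neither pair of groups overlapped, and with the set as a block both passed (adjusted p = 0.0383 and 0.0275, limma). Slc29a3, the intracellular relative of Slc29a1, was at -0.45 (adjusted p = 0.349), with groups that overlapped. Slc43a3, a purine nucleobase transporter, was at 0.31 (adjusted p = 0.812), and at 0.05 without PBS replicate 3.

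The class called mitochondrial carriers held 11 probe sets for 8 genes. It was assigned by the Slc25 family and not by the location of each carrier, so Slc25a17 is not given as a mitochondrial one. None rose or fell in limma over all probe sets, at an adjusted p of at least 0.559, and 0 of the 11 had an unadjusted p under 0.05. The changes lay between -0.43 and 0.17, with a median of 0.04 that was -0.24 in set 1 and 0.25 in set 2. The adenine nucleotide translocators, which exchange ADP for ATP across the inner membrane, were at -0.27 (Slc25a4, 95% confidence interval -0.69 to 0.15) and 0.16 (Slc25a5, -0.16 to 0.49). The 3 probe sets of Slc25a5 lay at 0.16 to 0.17. Slc25a36, a pyrimidine nucleotide carrier, was at -0.36 and -0.43 in its 2 probe sets. Slc25a3, the phosphate carrier, was at -0.01, and Slc25a1, the citrate carrier, at 0.13. The remaining genes of the class, Slc25a17, Slc25a39 and Slc25a51, were at -0.13, 0.17 and 0.04.

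Carriers of lipids, bile acids, choline and organic ions included 5 probe sets chosen by level, and 0 passed in limma, with changes from -0.43 to 0.30; 2 had an unadjusted p under 0.05. Slco3a1, another organic anion transporting polypeptide, was at 8.30 to 8.47 in PBS and 7.49 to 8.24 in G-CSF, without overlap (change -0.43, adjusted p = 0.355). Slc22a5 (OCTN2), the carnitine importer, was at -0.37 (limma adjusted p = 0.487). Its PBS mean was 7.24 and its G-CSF mean 6.87, so it met the level minimum only through the PBS arrays. The choline transporter-like genes Slc44a1 and Slc44a2 were at 0.06 and 0.30, and the second Slc44a1 probe set at -0.02.

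The remaining classes had no change past the threshold. The nucleotide sugar class held Slc35b1 at 0.15 and 2 probe sets of Slc35a4 at 0.28 and -0.12. The sodium-proton exchangers Slc9a9 and Slc9a8, both of internal membranes, were at -0.36 and 0.14. Genes of other or unassigned substrate were Slc49a4 (0.25), Slc35f5 (-0.04), Slc35e1 (0.01) and Slc38a10 (-0.01). Slc9a3r1 (-0.05), Slc9a3r2 (-0.43) and Slc7a6os (0.01) carry an Slc symbol but are adaptors or a neighbouring gene and not transporters. Slc35b1, Slc49a4, Slc35f5 and Slc9a3r1 changed sign under other settings.

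With the array set as a block, 8 of the 57 passed (14%), beside 6.45% of bright and 2.74% of all probe sets. Besides the first 4 these were Slc1a5, Slc23a2, Slc29a1 and Slc40a1. Slc23a2 and Slc40a1 have G-CSF means under 7 and met the level minimum only through their higher PBS arrays, so the share of 14% is not read against the background. The sets themselves separated the members: the fitted difference between sets was larger in size than that between treatments for 32 of the 57 (56.1%), beside 62% of bright probe sets. The 4 changed genes had 1 sign in both sets, but they were called on the arrays of both sets together, so this is no separate support. Of the 57, 23 differed in sign between sets, beside 1595 of the 4480 bright probe sets.

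**Figure D3:**
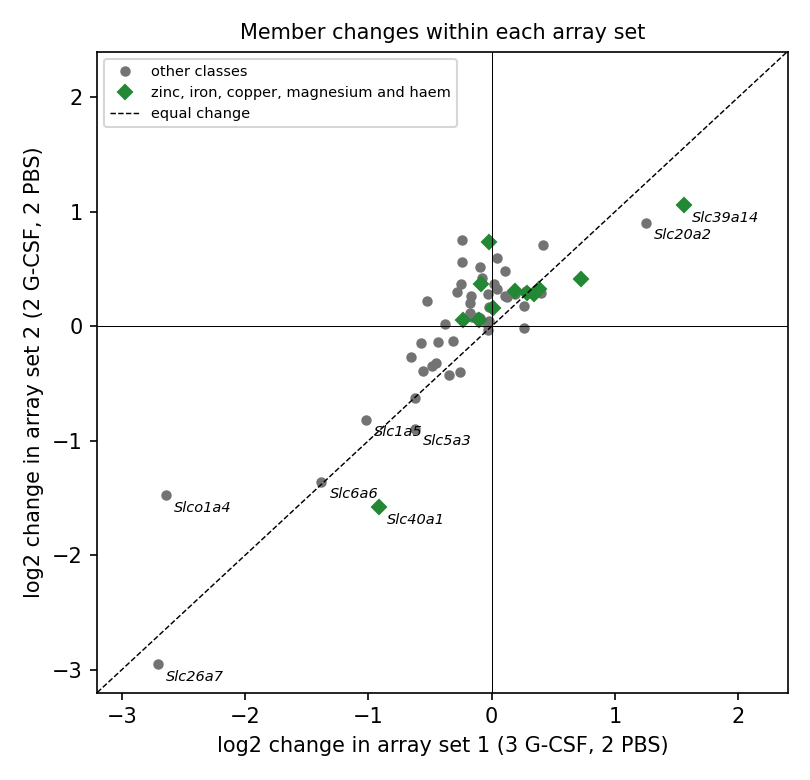
Log2 change of each member within array set 1 (horizontal) and set 2 (vertical), with the line of equal change; diamonds are metal and haem carriers. Slc26a7, Slc6a6, Slc39a14, Slc20a2 and Slc5a3 have 1 sign in both sets, and Slco1a4 differs more in set 1 (-2.64) than in set 2 (-1.47).

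The level minimum also decided which carriers were described. Of the 333 Slc probe sets left out by it, 5 changed (1.5%, beside 1.62% of all probe sets): besides Slco1a5, Slc27a6 (-1.71), Slc24a3 (-1.59) and Slc12a2 (-1.03) fell and Slc1a4 (0.93) rose, all chosen after their values were seen. Slc12a2 (NKCC1), the sodium-potassium-chloride cotransporter, lay just under the minimum, with a PBS mean of 7.41 and a G-CSF mean of 6.38 (adjusted p = 0.0487, limma). Its call held in 1 of 9 fits leaving out an array, that without G-CSF replicate 4 (adjusted p of 0.0247 to 0.148). The call of Slc27a6 was lost without PBS replicate 3 or 4 or G-CSF replicate 1 or 3 (adjusted p of up to 0.0672), whereas Slco1a5, Slc24a3 and Slc1a4 passed in all 9. Of 20 carriers listed by name, 12 met the minimum, and of the other 8, Slc12a2 alone passed. Slc7a5, the large neutral amino acid exchanger, was at 0.71 (adjusted p = 0.294), Slc7a11, the cystine importer, at 0.35, and the lactate transporters Slc16a1 and Slc16a3 at 0.46 and 0.34.

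**Figure D4:**
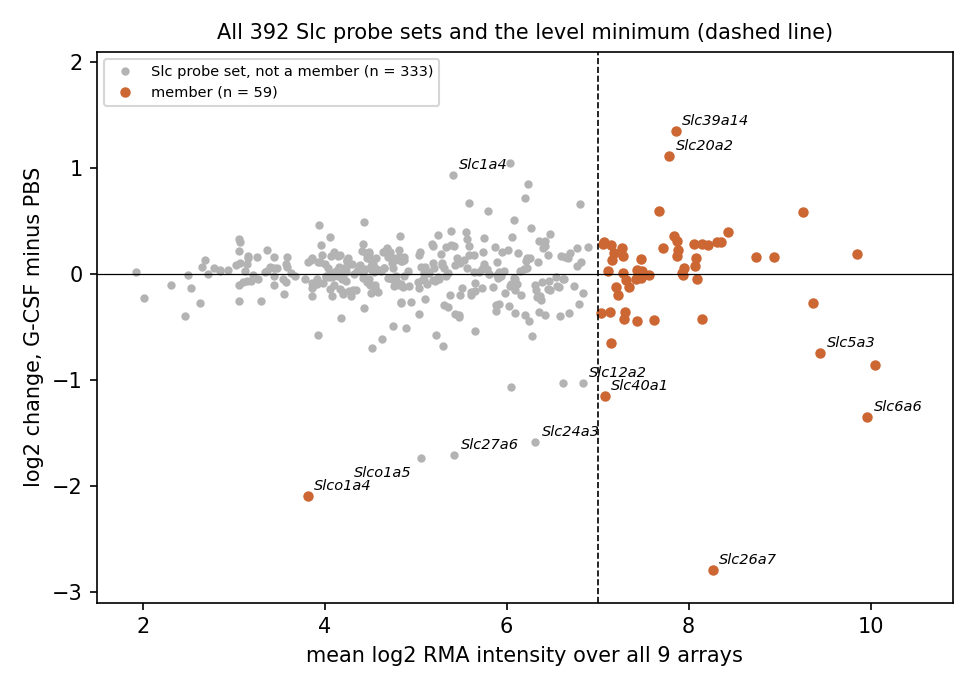
Log2 change against mean log2 intensity over all 9 arrays for the 392 Slc probe sets, with the level minimum of 7 as a dashed line. Slco1a4 is the sole member left of the line, and Slco1a5, Slc27a6 and Slc24a3, left of the line at higher mean intensity, also lie below -1.5.

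Carriers of Slc families that go by other symbols were counted from a list. Of 29 measured (32 listed), 1 fell, 0 rose and 28 did not pass, with a median change of -0.02. The one that fell was Flvcr2, a transporter of the Slc49 family, by 0.78 (limma adjusted p = 0.0171), a call lost without PBS replicate 1 or 2 (adjusted p = 0.0607 and 0.0608). Sfxn4, a sideroflexin of mitochondria, was at -0.64, with no overlap between groups (limma adjusted p = 0.148). Of 10 partner proteins and sodium pump subunits (12 listed), 0 passed in limma and 1 had an unadjusted p under 0.05. Fxyd5, a regulator of the sodium pump, was at 1.02, with no overlap between groups (limma adjusted p = 0.0862). It was at 1.23 without PBS replicate 3 (limma adjusted p = 0.0321) and at 0.84 without PBS replicate 1 (limma adjusted p = 0.243). Emb (embigin), a chaperone of lactate transporters, was at -0.30.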

How the data were processed

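RNA of sorted CAR cells was profiled on 4 PBS and 5 G-CSF arrays, after amplification, per the labels' protocols. RMA and Affymetrix Expression Console are named for the deposited intensity values in the submitters' processing notes, without a version. The values are on a linear scale, so log2 was taken. RMA normalises arrays to each other, so a change in total RNA per cell cannot be seen, and precision is limited by how many arrays there are. Of 35553 probe sets, the 21789 with 1 symbol in the platform table were tested (1621 had several and 12143 none), with limma 3.58.1 in R 4.3.3 (lmFit and eBayes, two-sided, no covariates). The mouse gene table of assembly GRCm38.p6 matched 21698 of them. Start regions were aligned with Biopython 1.88.

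Members, substrate classes and lists were chosen with earlier results of these data known. Classes are hand-assigned by family, with genes lacking a listed family under unassigned. Named were Slc26a7 and Slco1a4, every changed member, the 2 with the smallest p in each class of at least 3 probe sets, 20 listed carriers, 3 genes on each side of the level minimum, and the top of both partner lists; the remaining members are named by value for completeness. A gene with several probe sets is given by the one with the highest mean. The fit was tested on simulated data, where it recovered 10% of log2 changes of 0.5 and 54% of changes of 1. Of changes of 1.5 and 2 it recovered 92% and 98%. A gene that did not pass is therefore not shown to be unchanged. Alternatives were other probe set filters, normalisations, weights, blocks, level minimums, thresholds and left-out arrays; averaging G-CSF replicates 4 and 5 (the closest pair) and the leave-one-out fits of genes outside the level minimum were chosen after seeing the data.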

Additional observations from a re-analysis of the deposited data

Results flagged for a closer look

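Among 58 pairs of a named gene and a group examined, 2 held an array far from the others of its group, where chance alone marks about 1 in 20. Both were PBS replicate 3. In Slco1a4 it was at 3.97, while the other PBS arrays were at 5.17 to 5.39. In Slc43a3 it was at 6.90, while the others were at 7.85 to 8.04. This array also had the highest score on the first principal component (56.5, against 22.5 for the next).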

How the results depend on the processing

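Of 29 named genes, 24 kept their direction under the alternatives run for them, of which there were 21, less the fit of probe sets with a mean of at least 7 for Slco1a4, Flvcr2 and Sfxn4, which lie under that mean. The count of changed members was 4 (2 risen, 2 fallen). It was 7 (4 fallen) when only probe sets with a mean of at least 7 were fitted or at an adjusted p under 0.1, and 8 (5 fallen) with the array set as a block. Fallen members numbered 4 with array weights or a level minimum of 6, and 1 with all probe sets, at an adjusted p under 0.01 or in set 1 alone. After a further quantile normalisation 4 changed, Slc1a5 passing (adjusted p = 0.0238) and Slc5a3 not (0.0529). In set 2 alone 0 changed, 0 rose and 0 fell (limma, 4 arrays). A level minimum of 8 left 2 changed and 0 risen, since Slc39a14 and Slc20a2 lie below it.

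Deviations of same-numbered replicates correlated at 0.28, 0.14, -0.28 and 0.35 for numbers 1 to 4. The arrays of number 3 lie in different array sets, and those of each other number in the same set. A pairing by number therefore cannot be told apart from the set difference by these correlations. With the replicate block 1 member had fallen, the call of Slc5a3 being lost (adjusted p = 0.0838, limma). Leaving out 1 array gave 3 to 5 changed and 1 to 3 fallen.

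The median change of the members was -0.10 in set 1 and 0.20 in set 2. Class medians in set 1 were -0.24 for amino acids, -0.18 for lipids and organic ions, -0.24 for mitochondrial carriers, -0.29 for vitamins and nucleosides and 0.10 for metals. In set 2 they were -0.0190 for amino acids, 0.17 for lipids and organic ions, 0.25 for mitochondrial carriers and 0.17 for vitamins and nucleosides. Without single arrays the mitochondrial median ranged from -0.14 to 0.13 and the vitamin and nucleoside median from -0.26 to 0.0280.

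With array weights the sign turned for Slc9a3r1 (0.0216), Slc35b1 (-0.28), Slc49a4 (-0.0178) and Slc2a1 (0.0222). It turned in set 1 for Slc35b1 (-0.25) and Slc49a4 (-0.10), and in set 2 for Slc9a3r1 (0.0748), Slc35f5 (0.12) and Slc2a1 (0.0840). Leaving out 1 array, values ranged from -0.14 to 0.0823 for Slc9a3r1, -0.31 to 0.46 for Slc35b1, -0.12 to 0.0415 for Slc35f5, -0.12 to 0.48 for Slc49a4 and -0.10 to 0.0349 for Slc2a1. For these shifts the cause was not tested.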
